A study of Drosophila melanogaster with 2 samples.

Results

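Peaks of the ceramide synthase schlank at divergent protein-coding promoters were examined in whole Drosophila melanogaster embryos. A peak belonged here when its summit lay within 500 bp of a transcription start site (TSS) of at least 1 plus-strand and at least 1 minus-strand protein-coding gene. Of the 2790 peaks in the deposited thresholded set, 451 met this rule, and they touched 914 genes in 437 nearest gene pairs. They were set against 950 weaker candidate peaks at promoters of the same kind that overlapped no thresholded peak, of 26849 such candidates in all.

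The embryos were of mixed sex, aged 0 to 24 h, and were transgenic, with schlank stably expressed as a fusion to C-terminal GFP. The labels call the cell type whole organism, so cell types were not separated, and peak lists hold no expression values against which to check the tissue. Chromatin sheared to 200 to 800 bp was analysed by ChIP-seq, which sequences the DNA recovered with an antibody, in 2 biological replicates of this 1 group. No condition was therefore compared with another. The antibody label of both samples names schlank while their description calls them an input control. They were taken as ChIP samples on the antibody label, and the separate control named in the labels was not used here. Read depth is unknown, so intervals in brackets are exact 95% Clopper-Pearson intervals that cover the counting of peaks or genes only, and no test was made over peaks.

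The candidate lists held 30000 entries each, 1 list per replicate and 1 for both replicates pooled. The thresholded set is the deposited optimal set by IDR, a method that compares peak ranks between replicates. Membership followed pooled signal and does not show that each peak was found in both replicates. Of the 451 peaks, 28 had no candidate within 200 bp in replicate 1 and 1 had none in replicate 2. Peak signal is the value the authors deposited for each peak. Its scale is not given in the sources used here, so it was used only within a list. All thresholded peaks were stronger in pooled signal than all other candidates at these promoters, by the way the set is made, with values of 121.3 to 1701 in the 451 peaks and 30.7 to 120.9 in the 950 other candidates.

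Schlank makes ceramide, the core of sphingolipids, in the endoplasmic reticulum and nuclear envelope, and it also carries a homeodomain, a fold that in other proteins binds DNA. In the compact fly genome, genes often lie head to head, so that a short stretch of DNA serves as the promoter of both and is usually poor in nucleosomes. Many such promoters serve housekeeping genes and carry core sequences such as the Dref site, Ohler motifs 1, 6 and 7, and the E-box, while TATA boxes and GAGA repeats are better known from developmentally regulated promoters.

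Reference DNA from the strongest peaks is printed first because the position of the summit between the start sites and the sequences near it are described further on. Some stretches stop short of the summit. All stretches are on assembly dm6 (NCBI Release 6 genome), plus strand, 5′ to 3′, at or beside the summit and outside annotated exons. Capitals mark a match to any of the 10 short sequences searched, on either strand. The first gene of each pair runs on the minus strand, to the left, and the other on the plus strand, to the right. The first 5 come from the strongest peaks with head-to-head start sites, and the fourth strongest, at Pdrg1 and Pal1, is not printed.
mRpS23 and CenG1A, chr2L:13835354-13835554: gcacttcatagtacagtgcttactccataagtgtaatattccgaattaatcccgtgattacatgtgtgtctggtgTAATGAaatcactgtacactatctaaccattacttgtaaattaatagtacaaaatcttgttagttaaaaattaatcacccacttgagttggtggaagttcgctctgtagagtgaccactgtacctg
Art3 and mRpS10, chr3R:15229409-15229664: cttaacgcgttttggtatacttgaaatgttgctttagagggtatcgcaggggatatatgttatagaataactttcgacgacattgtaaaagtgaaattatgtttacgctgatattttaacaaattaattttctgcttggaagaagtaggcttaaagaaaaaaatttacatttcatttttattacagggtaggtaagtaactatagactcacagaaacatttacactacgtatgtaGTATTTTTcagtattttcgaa
Chro and Ssl1, chr3L:22878985-22879088: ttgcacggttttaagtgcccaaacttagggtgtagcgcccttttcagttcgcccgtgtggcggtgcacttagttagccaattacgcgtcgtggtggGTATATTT
Fbw5 and CG9147, chr2L:6065954-6065996: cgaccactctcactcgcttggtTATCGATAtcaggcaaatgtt
CG11309 and CG7632, chr3L:21304659-21304696: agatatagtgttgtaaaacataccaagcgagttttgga
The next 5 complete the set of strongest stretches holding each sequence searched, and the last is the promoter of schlank itself, which held none.
RpS27 and Nup37, chr3R:25247515-25247657: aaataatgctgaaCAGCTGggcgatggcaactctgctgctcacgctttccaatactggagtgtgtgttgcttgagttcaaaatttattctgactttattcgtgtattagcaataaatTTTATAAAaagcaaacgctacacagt
Tcs5 and CHMP2B, chr3L:5139396-5139618: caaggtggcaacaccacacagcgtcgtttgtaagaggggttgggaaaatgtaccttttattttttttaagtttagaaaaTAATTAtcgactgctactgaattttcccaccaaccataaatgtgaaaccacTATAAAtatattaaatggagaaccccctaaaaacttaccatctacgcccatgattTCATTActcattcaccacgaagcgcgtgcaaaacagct
Ripalpha and RpL7, chr2L:10200975-10201003: cccactccgcggccaGTGTGACCgtttgg
Atat and Shc, chr3L:9426759-9427009: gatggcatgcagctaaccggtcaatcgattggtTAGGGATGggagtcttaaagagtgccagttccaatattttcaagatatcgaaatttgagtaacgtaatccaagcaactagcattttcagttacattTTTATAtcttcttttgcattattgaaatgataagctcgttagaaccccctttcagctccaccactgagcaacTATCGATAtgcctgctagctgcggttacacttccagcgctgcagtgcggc
Acbp1 and Piezo, chr2L:8162732-8162932: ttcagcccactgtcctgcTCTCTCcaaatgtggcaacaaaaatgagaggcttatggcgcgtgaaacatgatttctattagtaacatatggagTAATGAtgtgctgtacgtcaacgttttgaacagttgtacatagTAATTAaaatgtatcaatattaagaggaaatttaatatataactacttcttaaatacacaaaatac
schlank and Spt6, chrX:6267472-6267672: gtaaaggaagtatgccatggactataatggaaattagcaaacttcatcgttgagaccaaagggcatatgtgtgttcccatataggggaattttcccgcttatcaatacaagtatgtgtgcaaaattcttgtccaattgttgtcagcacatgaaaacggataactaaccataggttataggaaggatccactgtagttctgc
The first stretch holds the homeodomain variant, those of mRpS10 and Ssl1 hold the 2 spellings of Ohler motif 6, and that of Fbw5 holds the Dref site. The matches at mRpS10, Ssl1 and Fbw5, and the TATA box at RpS27, lie more than 100 bp from the summit and so outside the window used for the shares of sequences given further on. That of RpL7 holds Ohler motif 1 on the other strand, that of RpS27 an E-box and a TATA box, that of CHMP2B a TATA box and both homeodomain sequences, that of Shc Ohler motif 7, a Dref site and a TATA box, and that of Piezo a GAGA repeat beside both homeodomain sequences.

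The share of summits past the threshold was higher at divergent promoters than at other promoters. Of the 1401 summits there, 451 were thresholded, which is 32.2% (29.7 to 34.7). At promoters with start sites on 1 strand only, 931 of 6109 summits were thresholded, 15.2% (14.3 to 16.2). Away from protein-coding promoters the share was 6.36% (6.04 to 6.69), and over all summits 9.41% were thresholded. Seen the other way, divergent promoters held 16.2% of thresholded peaks (14.8 to 17.6) and 3.54% of the other candidates.

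Each replicate gave the same order of classes when its own strongest 2790 candidates took the place of the thresholded set. In replicate 1 these made up 500 of 1272 divergent summits, 39.3% (36.6 to 42.1), and 16.4% of single-strand summits (15.4 to 17.5). In replicate 2 they made up 400 of 1370 divergent summits, 29.2% (26.8 to 31.7), and 14.8% of single-strand summits (14.0 to 15.7). The divergent share thus differed between the replicates by more than its intervals, and it lay above the single-strand share in both.

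**Figure D1:**
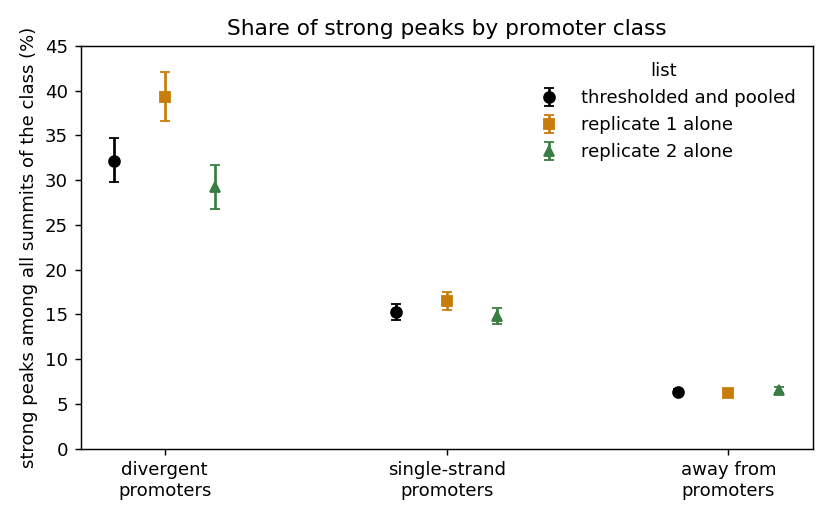
Percent of summits that were strong peaks (y axis) in 3 promoter classes (x axis), for the thresholded set among thresholded and pooled candidates and for the strongest 2790 candidates of each replicate alone; bars are exact 95% intervals that cover counting of peaks. Divergent promoters lie between 29.2% and 39.3% in the 3 lists, above single-strand promoters at 14.8% to 16.4%.

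Once past the threshold, the peaks of both promoter classes were of like strength. The median signal was 194.7 at divergent promoters (quartiles 150.4 and 305.1) and 192.6 at single-strand promoters (quartiles 146.3 and 295.5). The difference of 2.14 was small beside these spreads. Under other settings it ran up to 18.1, with both start sites within 250 bp, and down to -1.93, in the stronger 50% of thresholded peaks. The strongest divergent peak ranked 7 in the whole thresholded set, and the strongest single-strand peak reached 2915.

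The 25 strongest divergent promoter peaks had signals of 650.3 to 1701, and all 25 were among the strongest 2790 candidates of both replicates. The strongest lay 382 bp from the TSS of mRpS23, a mitochondrial ribosomal protein, and 110 bp from that of CenG1A, an Arf GTPase-activating protein. Its signal was 312.5 in replicate 1 and 1387 in replicate 2, at list ranks 36 and 6. The next, at the start sites of the arginine methyltransferase gene Art3 and of mRpS10, had a pooled signal of 1498, with 522.3 in replicate 1 and 979.6 in replicate 2, at ranks 8 and 20. Both peaks thus stood near the top of each replicate's list. Their values are not compared between replicates, since each list has its own scale.

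The third, at 1453, was shared by Chro, a chromodomain protein of interband chromatin and the spindle matrix, and Ssl1, a subunit of the transcription and repair factor TFIIH. It had 385.4 in replicate 1 and 1066 in replicate 2. The pair of Pdrg1, a prefoldin-like protein, and Pal1, a lyase of peptide amidation, followed at 1352, with 354.4 and 998.6 in replicates 1 and 2. The pair of the F-box gene Fbw5 and CG9147 stood at 1318, with 360.7 and 944.6 in replicates 1 and 2. Of these 5 pairs, only the first 2 include a gene of a ribosomal protein list.

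Others of the 25 had genes of known roles. RpS27 and the nuclear pore gene Nup37 shared a peak of 1200, Tcs5, of tRNA modification, and CHMP2B, of the ESCRT-III complex, shared 1125, and Ripalpha and RpL7 shared 1085. The peroxisomal gene Pex11ab with CG8320 stood at 971.1, the tubulin acetyltransferase gene Atat with the adaptor gene Shc at 798.8, and CG1275 with Elp5, of the Elongator complex, at 796.5. Metabolic genes were represented by Coq4, of ubiquinone synthesis (with CG32176, 701.4), and by the pair of the complex I subunit gene ND-ASHI and the fumarase gene Fum1 (695.4). The complex I assembly gene CIA30 shared a peak of 742.0 with CG7601, the oligosaccharyltransferase gene Stt3A a peak of 712.7 with bves, and the translation repressor gene eIF4EHP a peak of 694.7 with CG18428. Also among the 25 were CG11309 with CG7632 (1208), CG5611 with the Rac-like GTPase gene Mtl (1066), CG13390 with CG17294 (940.5), mRpL23 with CG9004 (822.8), and CG8372 with CG8360 (785.7). The last were CG5757 with CG5098 (773.8), tank with CG12194 (752.7), Mnat9 with CG1792 (709.3), and CG3437 with CG3552 (650.3).

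Most summits lay in the DNA between the start sites. The nearest minus-strand TSS lay to the left of the nearest plus-strand TSS, head to head, at 442 of the 451 peaks (98%) and at 907 of the 950 other candidates (95.5%). The summit fell between the start sites at 360 of the 451 peaks, 79.8% (75.8 to 83.4), and at 619 of the 950 other candidates, 65.2% (62.0 to 68.2). Among the divergent summits of the 2790 strongest unthresholded candidates the share was 79.3%, within the interval of the peaks. These candidates were all weaker than the peaks, at 120.9 or less. Position between the start sites thus did not separate the peaks from the stronger of the other candidates. The median distance between the start sites was 287 bp in thresholded peaks (quartiles 203.5 and 379) and 280.5 bp in other candidates (quartiles 121 and 402).

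The nearer TSS was a median of 84 bp away (quartiles 46 and 115) and the farther 205 bp, against 72 and 270 bp in the other candidates. The nearer gene was on the minus strand at 210 peaks (46.6%) and on the plus strand at 241 (53.4%), and the interval for the plus strand, 48.7 to 58.1%, includes an even split. Both start sites lay within 250 bp of the summit at 276 peaks (61.2%), against 434 of the other candidates (45.7%).

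**Figure D2:**
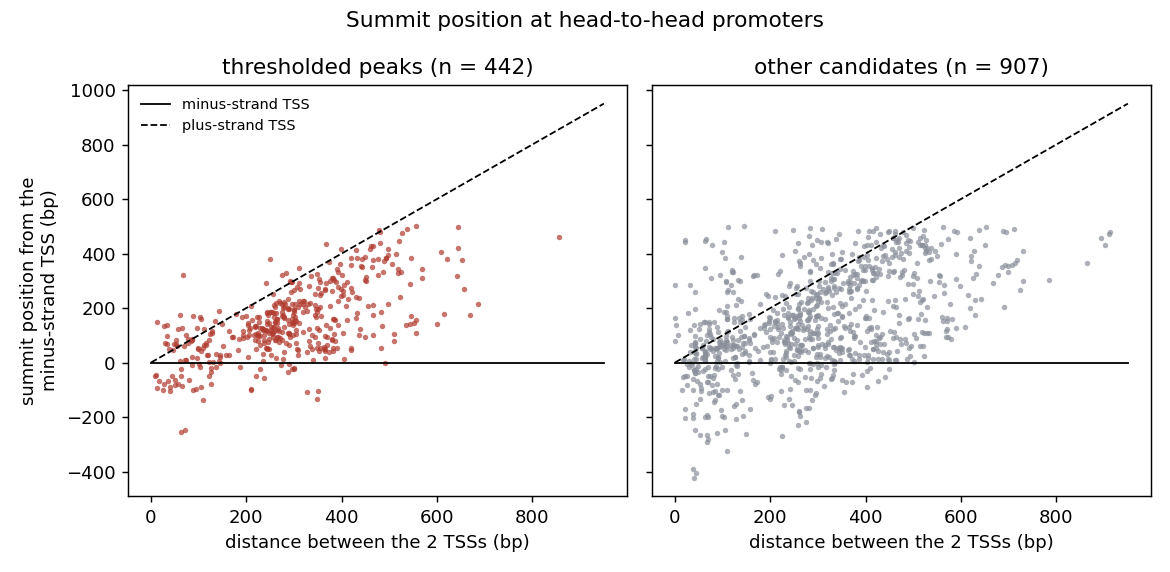
Summit position relative to the minus-strand TSS in bp (y axis) against the distance between the start sites in bp (x axis), for 442 thresholded peaks and 907 other candidates with head-to-head start sites; the solid and dashed lines mark the minus-strand and plus-strand TSS. Most points fall between the lines, 358 of the 442 thresholded peaks and 606 of the 907 other candidates.

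Spacing between the start sites went with the share of thresholded summits. It was highest where they stood 201 to 300 bp apart, with 142 of 351 summits or 40.5% (35.3 to 45.8), and next where they stood 301 to 400 bp apart, at 37.8% (32.1 to 43.7). At 1 to 100 bp it was 26.3% (20.5 to 32.8), at 101 to 200 bp 26.9% (20.4 to 34.1), at 401 to 600 bp 28.1% (22.9 to 33.8), and at 601 to 1000 bp 24.0% (13.1 to 38.2). Both replicates had their highest share at 201 to 300 bp, 50.8% in replicate 1 and 36.0% in replicate 2, followed by 43.5% and 29.9% at 301 to 400 bp. GC content in thresholded peaks was 34.5% and 34.8% at these spacings, against 38.7% and 39.0% at the 2 shortest. It was also low, at 35.5% and 35.0%, at 401 to 600 and 601 to 1000 bp, where the thresholded share was lower. The part of GC content in the result was not tested.

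With start sites at most 100 bp apart, only 12 of 55 summits (21.8%) lay between them, and the median summit was 48 bp from the nearer TSS and 99 bp from the farther. Between 201 and 300 bp the summit was inside the gap at 88.0% of peaks, a median of 45.5 bp from its midpoint. The nearer TSS was a median of 85 bp away at this spacing, so the typical summit lay nearer the middle than either start site. Between 301 and 400 bp the medians were 86.5 bp to the midpoint and 94 bp to the nearer TSS. Between 401 and 600 bp the summit was inside at 98.7%, 122.5 bp from the midpoint and 116 bp from the nearer TSS. At 601 to 1000 bp, with 12 peaks, the medians were 101 and 219.5 bp, and there the rule itself keeps summits away from either TSS.

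Counted over the annotation, 2462 pairs of head-to-head protein-coding start sites at most 1000 bp apart were found. Of these, 432 (17.5%) had a thresholded summit within reach of both, 813 (33.0%) had only another candidate, and 1217 (49.4%) had none. The share with a thresholded summit was 27.5% at 201 to 300 bp (23.7 to 31.6) and 24.8% at 301 to 400 bp (20.5 to 29.5), against 19.1% at 1 to 100 bp (15.4 to 23.3) and 14.7% at 101 to 200 bp (11.1 to 18.9). The fall to 14.6% at 401 to 600 bp and 2.23% at 601 to 1000 bp is partly built in, since the stretch within 500 bp of both start sites shrinks as they move apart.

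A candidate summit within 200 bp was present in replicate 1 for 423 of the 451 peaks (93.8%), in replicate 2 for 450 (99.8%) and in both for 422 (93.6%). Among the 950 other candidates both replicates had one for 454 (47.8%). Among the strongest 2790 candidates of a replicate, replicate 1 held 364 of the peaks (80.7%), replicate 2 held 368 (81.6%) and both held 291 (64.5%). Over the 422 peaks seen in both, the signals correlated with a Spearman rho of 0.54 and a Pearson r of 0.62 on the log2 scale. This is across peaks of shared libraries and a shared threshold, and is a description only.

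The replicates ranked divergent promoters differently. The median list rank was 985 over the 423 peaks with a candidate in replicate 1 and 1406 over the 450 with one in replicate 2, where rank 1 is the strongest. At single-strand promoters the order was the other way round, 1429 in replicate 1 and 1256 in replicate 2 (885 and 926 peaks). GC content was higher in the list of replicate 2 in every class, not only at divergent promoters. Divergent summits averaged 34.5% GC in the list of replicate 1 (SD 7.48, n = 1349 summits) and 39.9% in that of replicate 2 (SD 7.84, n = 1412 summits). Single-strand summits averaged 39.7% and 45.2% in replicates 1 and 2, and summits away from promoters 40.0% and 44.7%. The 73 members strong in replicate 1 only averaged 32.3% GC (SD 6.09), the 77 strong in replicate 2 only 39.2% (SD 6.30), and the 291 strong in both 35.7% (SD 6.71). The part of GC content in the replicate difference was not tested.

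**Figure D3:**
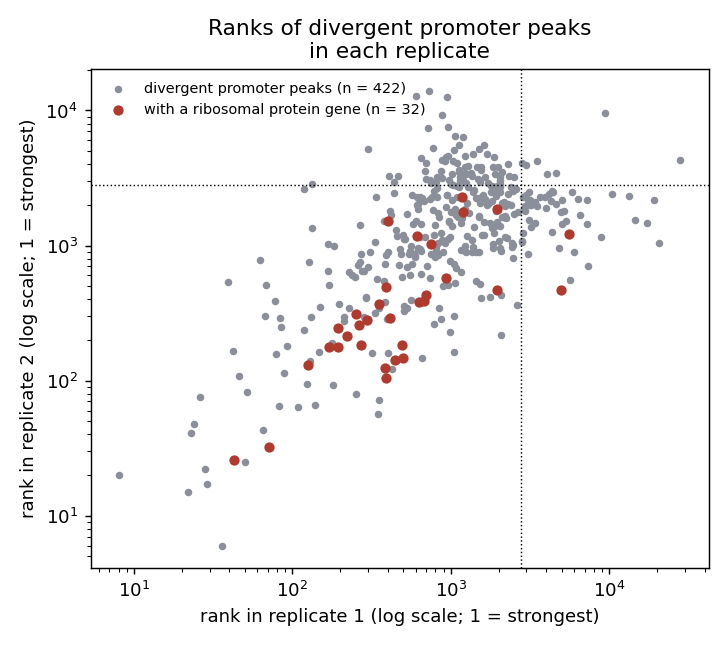
Rank of divergent promoter peaks in replicate 2 (y axis, log scale) against replicate 1 (x axis, log scale), 1 being the strongest; grey points are the 422 peaks seen in both replicates, red points the 32 of them with a ribosomal protein gene, and dotted lines mark rank 2790. Points in the lower left are strong in both replicates, as 291 peaks were.

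Members absent from a replicate were few. The tetraspanin gene Tsp3A and Seipin, a gene of lipid droplet formation, shared the strongest peak with no candidate in replicate 1, with a pooled signal of 390.8 and 322.3 in replicate 2. CG10584 and Polr3E, a subunit gene of RNA polymerase III, shared the only member with no candidate within 200 bp in replicate 2. It had 261.4 pooled and 155.3 in replicate 1. The other thresholded peak of this pair, 202 bp away, had 128.8 in replicate 2, so that replicate did have a candidate at this promoter. The schlank promoter was among the 28 with none in replicate 1.

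The summit at the schlank promoter lay on the X at position 6267572, 344 bp from the schlank TSS and 225 bp from that of Spt6, which encodes a histone chaperone that travels with RNA polymerase II. The start sites are 569 bp apart and the summit falls between them. Its pooled signal was 225.2, rank 985 in the thresholded set and 181 among the 451 peaks. Replicate 2 had 202.7 there, at list rank 661, and replicate 1 had no candidate within 200 bp. The peak therefore rests on replicate 2 and the pooled list. The bases within 100 bp of the summit were 39.3% G or C. Of the 7 sphingolipid genes with a candidate at a divergent promoter, schlank was the only one with a thresholded peak there, 14.3% (0.361 to 57.9). Over all genes with a candidate at a divergent promoter the share was 35.0%, within that interval, and 5 of 11 sphingolipid genes (45.5%) had a thresholded peak at a single-strand promoter.

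Genes listed for the cytoplasmic ribosome had thresholded peaks at almost every divergent promoter that had a candidate. This list was chosen with earlier results for ribosomal protein genes in these data known, so its shares are a description only. Of 33 listed genes with such a candidate, 31 had a thresholded peak, 93.9% (79.8 to 99.3). Over all genes with such a candidate the share was 35.0% (914 of 2609). At single-strand promoters 36 of 47 ribosomal protein genes (76.6%) had a thresholded peak, against 885 of 4495 genes or 19.7% over all genes there. The listed genes without a thresholded peak at a divergent promoter were RpS13, whose promoter shared with CSN8 reached 93.3, and RpL24-like, shared with CG5276, at 76.8. RpL24-like was on the list by its symbol, and its place in the ribosome was not checked. The 32 peaks with a ribosomal protein gene in the nearest pair had a median signal of 442.4, against 189.7 in the other 419, and 28 of the 32 lay above the median of all members. All 32 had a candidate in both replicates, at median ranks of 408 and 299.5 in replicates 1 and 2. Without ribosomal protein genes the share of thresholded summits was 30.7% at divergent promoters (28.2 to 33.2) and 14.8% at single-strand promoters (13.9 to 15.7), so the gap between the classes remained.

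At these pairs the summit sat on the start of the ribosomal protein gene, not of its partner. The ribosomal protein gene was the nearer at 31 of 32 peaks, 96.9% (83.8 to 99.9). The median distance was 20.5 bp to the TSS of the ribosomal protein gene and 264 bp to that of the partner, whereas over the other 419 peaks the nearer TSS was a median of 89 bp and the farther 202 bp away. The summits of each replicate taken alone lay likewise. The ribosomal protein gene was nearer at 30 of 32 sites in replicate 1, with medians of 37 bp to its TSS and 246.5 bp to the partner's, and at 31 of 32 sites in replicate 2, with 29 and 266 bp. At single-strand promoters, too, the summit was a median of 14.5 bp from the TSS at 36 peaks of ribosomal protein genes, against 153 bp at 895 others.

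The strongest of these peaks lay 3 bp from the TSS of RpS27 and 147 bp from that of Nup37, where replicate 1 had a signal of 296.6 and replicate 2 of 909.5. At the 30-bp gap between Ripalpha and RpL7, printed above, the summit was 43 bp from RpL7 and 73 bp from Ripalpha, with 232.0 in replicate 1 and 839.4 in replicate 2. The peak of RpL34b and CG8132 had a pooled signal of 646.3, with 197.8 and 452.8 in replicates 1 and 2. That of RpL14 and Nelf-E, a subunit gene of the pausing factor NELF, had 631.3, with 116.2 and 510.8 in replicates 1 and 2.

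Pairs with widely spaced start sites show the same position. The summit was at the TSS of RpS19a itself (0 bp) and 480 bp from that of the kinase gene Rok. At RpL31 and CG12929 it was 7 and 486 bp away, and at Rack1, a scaffold of the small ribosomal subunit, and mts, the catalytic subunit of phosphatase 2A, 12 and 392 bp. RpL13 shared its peak of 578.5 with Dref, the factor after which the Dref site is named, at 4 bp from RpL13 and 80 bp from Dref.

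**Figure D4:**
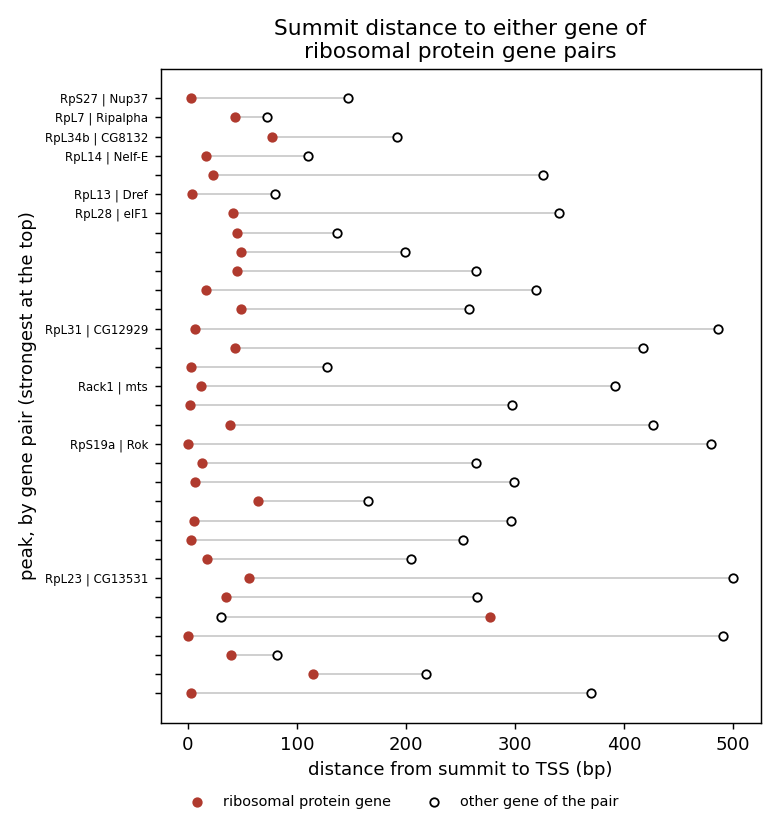
Distance from summit to TSS in bp (x axis) for the 32 peaks with a ribosomal protein gene, in order of pooled signal from the top; filled points are the ribosomal protein gene and open points the other gene of the pair, with labels for the pairs the text names. The filled point is nearer 0 in 31 of the 32 pairs.

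Mitochondrial ribosomal proteins, encoded by a separate set of genes, had values nearer the background. Although mRpS23 and mRpS10 stood at the strongest divergent promoter peaks, 13 of 40 such genes with a candidate had a thresholded peak, 32.5% (18.6 to 49.1), close to the background of 35.0%. The mitochondrial ribosomal protein gene was the nearer at 3 of 13 peaks, with medians of 167 bp to its TSS and 110 bp to the partner's. Besides the pairs already given, the peak of mRpL24 and betaggt-I had a pooled signal of 385.7, with 176.2 in replicate 1 and 205.2 in replicate 2. The difference between the ribosomal lists was not tested.

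Replication, repair and cell cycle genes had 13 of 26 with a thresholded peak, 50% (29.9 to 70.1), an interval that includes the background. The 13 were Dref, PolD2, Cdc7, dpa, dup, Cdc16, mus312, Rad60, Dp, mei-41, RPA1, Mcm2 and mus301. PolD2, of DNA polymerase delta, stood at 337.5, the replication kinase gene Cdc7 at 299.2, with a summit 3 bp from its TSS, and dpa, of the MCM helicase, at 237.3. Cdc16 encodes a subunit of the anaphase-promoting complex and Dp the partner of E2F, so that not every gene of the list acts in replication itself. RPA1 and Mcm2, which encode a single-strand DNA-binding protein and an MCM helicase subunit, formed the only pair with both genes in the same list, with a pooled signal of 155.5 and replicate signals of 65.5 and 79.2 for replicates 1 and 2.

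RNA polymerase and general transcription genes had 15 of 34, 44.1% (27.2 to 62.1), aminoacyl-tRNA synthetases 6 of 12, 50% (21.1 to 78.9), and chaperones 5 of 13, 38.5% (13.9 to 68.4). All these intervals include the background of 35.0%. The Mediator gene MED30 with Rev1 stood at 393.6, Polr2B, of RNA polymerase II, with 140up at 266.4, and Polr3E and Spt6 as given above. Of the synthetases, SerRS stood at 312.8 and GluProRS at 207.7, with ArgRS-m at 169.9 and ArgRS at 146.4. The chaperone genes included the mitochondrial Hsc70-5 (246.1), Pfdn6 (174.4), DnaJ-H (168.3) and Hsc70-4 (149.1).

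The shares of the other lists lay below the background, with intervals that include it. Translation factors had 4 of 15, eIF4EHP, eIF1 (569.4, in the pair with RpL28), eIF3h (281.7) and eIF3a (209.7). Oxidative phosphorylation had 6 of 27, 22.2% (8.62 to 42.3), with ND-ASHI, ND-MWFE (304.7), ND-51 (187.9) and COX6B (185.8) the strongest. Vesicle transport genes had 11 of 39, 28.2% (15.0 to 44.9), led by Vps33B (426.3), alphaCOP (401.9), Vps13D (244.7) and Vps36 (198.4). Splicing genes had 5 of 17, with U2af50 (256.2), SmD3 (236.6), snRNP-U1-C (194.9) and Sf3b6 (158.9). Nuclear pore and transport genes had 3 of 12, Nup37, Kap-alpha3 (465.7) and Nup98-96 (191.8). Proteasome genes had 3 of 13, Rpn3 (152.1), Rpn5 (148.8) and Prosalpha4 (144.3), and mitochondrial import 1 of 5, Tom7 (303.6). In all, 114 of the 451 peaks had a gene of any of the 14 lists in the nearest pair.

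Thresholded divergent summits were poorer in G and C than the summits they were set against. The 201 bases around them averaged 35.8% GC (SD 6.81, n = 451), against 39.4% in other divergent candidates (SD 7.88, n = 950) and 39.5% in thresholded single-strand peaks (SD 7.72, n = 931). The share of thresholded summits went with GC content, but divergent promoters lay above single-strand promoters in each 5-point bin from 25 to 55% GC. It was 44.1% at divergent and 32.8% at single-strand promoters between 25 and 30% GC, 34.5% and 21.2% between 35 and 40%, and 18.2% and 9.94% between 45 and 50%. Between 55 and 60% GC none of 20 divergent summits was thresholded (0 to 16.8%), against 4.50% of single-strand summits. Peaks at ribosomal protein genes were richer, with a mean of 43.2%.

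None of the 10 sequences was found in most of the peaks. Matches were sought on both strands within 100 bp of the summit, and the same length of DNA at the midpoints of the 2462 annotated pairs served as a background. The midpoints were not matched to the peaks for spacing of the start sites, distance to the TSS or GC content. Start sites stood 601 to 1000 bp apart at 404 of these pairs but at only 12 of the peaks. TATAAA was the commonest, at 39.2% of thresholded peaks (34.7 to 43.9), 29.6% of other candidates (26.7 to 32.6) and 41.2% of midpoints. With the other candidates weighted to the GC content of the peaks, their share was 37.0%, within the interval of the peaks. The homeodomain core TAATTA was at 19.3% of peaks (15.7 to 23.2), 17.5% of other candidates (15.1 to 20.04) and 22.1% of midpoints, and the weighted share of candidates was 21.7%. The variant TAATGA was at 15.3% of peaks (12.1 to 19.0), 10.1% of other candidates (8.26 to 12.2) and 15.0% of midpoints, with a weighted share of 12.3%.

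Of the housekeeping core sequences, the Dref site TATCGATA was within reach of 9.76% of peaks (7.18 to 12.9) and 12.0% of other candidates (10 to 14.2), against 8.65% of midpoints. Ohler motif 1, GGTCACAC, was at 5.10% (3.26 to 7.55) and 8.11% (6.45 to 10.03), against 5.52% of midpoints, the lower share being that of the peaks. Ohler motif 7, CATCNCTA, was at 10.2% (7.56 to 13.4) and 9.05% (7.30 to 11.1), against 5.24%. The E-box CAGCTG was at 17.3% (13.9 to 21.1) and 14.9% (12.7 to 17.4), against 12.6% of midpoints. The spellings GTATTTTT and GTATATTT of Ohler motif 6 were at 6.87% and 5.32% of peaks, against 5.58% and 4% of other candidates and 6.26% and 5.97% of midpoints. The GAGA repeat GAGAGA was at 3.55% of peaks (2.04 to 5.70) and 5.26% of other candidates (3.93 to 6.88), against 5.36% of midpoints. GTATTTTT, GTATATTT and TATAAA can share bases with each other's AT-rich matches, and each was counted separately.

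Set against thresholded peaks at single-strand promoters, 9 of the 10 sequences had a higher share at divergent promoters. This comparison was neither weighted for GC content nor matched for distance to the TSS. Mean GC was 35.8% at divergent and 39.5% at single-strand peaks. Without ribosomal protein genes, the nearer TSS was a median of 89 bp from divergent and 153 bp from single-strand summits. The part of either in these shares was not tested. The Dref site was at 9.76% of divergent and 4.62% of single-strand peaks (3.36 to 6.17), Ohler motif 7 at 10.2% and 4.94% (3.64 to 6.54), the E-box at 17.3% and 11.5% (9.51 to 13.7), and TATAAA at 39.2% and 27.5% (24.7 to 30.5). TAATTA was at 19.3% and 12.8% (10.7 to 15.1), TAATGA at 15.3% and 10.6% (8.73 to 12.8), and Ohler motif 1 at 5.10% and 2.90% (1.92 to 4.19). The spellings of Ohler motif 6 were at 6.87% and 4.19% for GTATTTTT and 5.32% and 2.36% for GTATATTT. The GAGA repeat went the other way, at 3.55% of divergent and 13.9% of single-strand peaks (11.7 to 16.2). The same direction held between the other candidates of these classes for the Dref site, 12.0% and 2.22%, and for the GAGA repeat, 5.26% and 10.6%.

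**Figure D5:**
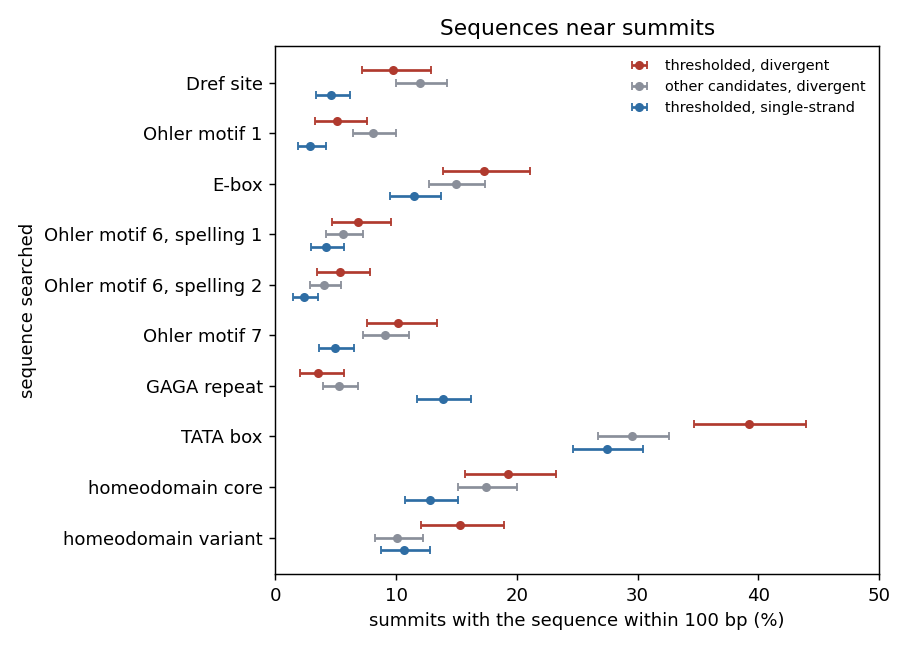
Percent of summits with each of 10 short sequences within 100 bp (x axis), by sequence (y axis), for thresholded divergent peaks, other divergent candidates and thresholded single-strand peaks; bars are exact 95% intervals that cover counting of peaks. The GAGA repeat is at 3.55% of divergent and 13.9% of single-strand thresholded peaks, and the Dref site at 9.76% and 4.62%.

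The 44 peaks with a Dref site had a median signal of 185.8 and the peaks without it 195.1, a small difference beside the quartiles of all members, and 24 of the 44 were among the strongest 2790 of both replicates. Their median rank was 1582 in replicate 1, against 954.5 without the site, and 1462.5 in replicate 2, against 1388. Peaks with 0 of the 4 housekeeping sequences (Dref site, Ohler motif 1, E-box, Ohler motif 7) numbered 290, or 64.3%, against 593 of the other candidates (62.4%) and 732 of the thresholded single-strand peaks (78.6%).

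The X chromosome had the lowest share of thresholded divergent summits among the long arms. It was 24.0% on the X (18.5 to 30.2), with 53 of 221 summits. The share was 29.0% on 2R (23.8 to 34.7), 33.1% on 3L (27.6 to 39.0), 34.3% on 3R (29.5 to 39.3) and 39.2% on 2L (33.0 to 45.6). The interval of the X overlapped those of 2R, 3L and 3R. Neither of the 2 divergent summits on the fourth chromosome was thresholded. At single-strand promoters the X had 15.7%, within the 13.9 to 16.6% of the other long arms. Replicate 1 gave 25.3% on the X and 34.4 to 43.4% on the other long arms, and replicate 2 gave 22.1% and 26.2 to 33.1%. GC content in thresholded peaks was 37.4% on the X and 34.9 to 37.3% on the other long arms. Sex was mixed in both samples, so the number of X chromosomes per cell is not the same in all embryos, and its part in the result was not tested.

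At 14 of the 437 gene pairs (3.20%) the thresholded set held 2 peaks, 199 to 228 bp apart with a median of 203.5 bp. Among the other divergent candidates, 100 of 845 pairs (11.8%) held more than 1 summit. Examples of the 14 were Pax, the paxillin gene, with Alp12 and CG13085 (544.4 and 195.0), and Irbp18 and APP-BP1 (437.4 and 129.1). Others were Fur1 and Vps33B (426.3 and 184.7), and CG10584 and Polr3E (261.4 and 183.0). These examples were chosen after their values were seen. Such peaks share DNA and are not separate pieces of evidence.

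At 9 peaks the nearest start sites overlapped, the plus-strand TSS lying left of the minus-strand TSS by 11 to 266 bp. The strongest was that of CG4741 and Adck1, with a pooled signal of 606.9 and replicate signals of 112.0 and 475.0 for replicates 1 and 2. The second was that of CG43345, CG43346 and mAcon1, the mitochondrial aconitase gene, at 283.5.

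Near the limit of 500 bp, the outermost members were CG13531 and RpL23, with the farther TSS 500 bp away (signal 230.0), and Nepl19 with Nepl20 (229.3) and CG10804 with CG10802 (169.9), both at 496 bp. Just outside were Galk with CG5068 at 504 bp (145.3) and yki with Gpat4 at 505 bp (237.2). The strongest candidates that were not thresholded were Vps52 with Elp4, at a pooled signal of 120.9, Pez with Cpr at 119.7, and Rpn6 with ave at 119.6.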

How the data were processed

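The submitters' lists of schlank ChIP-seq peaks in 2 replicates were used: candidates of each replicate, pooled candidates, and the optimal IDR set. Peak signal was used as the authors deposited it, on a scale not stated. The labels give dm6 as the assembly. No aligner, caller or IDR cutoff is given in the sources used here, and depth is unknown. The summit is the deposited start plus offset. Start sites came from 30748 transcripts of 13945 protein-coding genes (Ensembl release 115, BDGP6.54), and arm lengths equal those of the NCBI Release 6 genome used for sequence. The 361 candidates that overlapped a thresholded peak without being it were left out. A site was the same in a replicate when summits lay within 200 bp. Gene lists were matched by symbol.

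Genes were named by rule: schlank and Spt6, both genes of the 25 strongest peaks, up to 4 genes per list with the strongest peak, the 3 strongest unthresholded candidates, and pairs nearest the 500 bp limit. Names outside it were added after their values were seen: the other pairs with ribosomal protein, replication or overlapping genes, pairs with 2 peaks, those lacking a replicate, and the third pair inside the limit. The class, lists and sequences were chosen with earlier results of these data known, ribosomal protein genes among them. Some pairs are not reported by name here. Class assignment, overlaps and sequence searches were checked on simulated data. Alternatives were other promoter windows, TSS sets, backgrounds, each replicate alone, GC weighting and the stronger 50% of peaks. GC bins, arms and shares without ribosomal protein genes were added after the data were seen. The tools were matplotlib 3.10.9, scipy 1.17.1, pandas 2.3.3, numpy 2.4.6 and Python 3.11.15.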

Additional observations from a re-analysis of the deposited data

How the results depend on the processing

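No paired analysis was possible because both samples belong to 1 group. Leaving out a replicate gave 400 to 500 divergent peaks, a thresholded share of 29.2 to 39.3% at divergent and 14.8 to 16.4% at single-strand promoters, and a difference of median signals of 3.64 to 7.45. It gave 77.5 to 85.0% of summits between the start sites for peaks and 60.0 to 67.9% for other candidates, with median TSS distances of 265.5 to 297.5 bp and 272.5 to 301 bp. With both start sites within 250 bp there were 276 peaks, shares of 38.9% (divergent) and 17.8% (single-strand), a signal difference of 18.1, median TSS distances of 238 bp for peaks and 163 bp for other candidates, and 68.2% of candidate summits between the start sites. Within 1000 bp these shares were 24.7% and 13.2%, the signal difference 6.28, the TSS distances 325 and 365 bp, and summits between the start sites 75.6% and 50.2%. With the most 5′ TSS of each gene alone the last were 71.7% and 60.8%, and the signal difference was 9.77. The stronger 50% of peaks had 252 members, shares of 21.0% and 8.74%, and a signal difference of -1.93. Against the 2790 strongest unthresholded candidates the shares were 62.6% and 51.7%. Of the divergent summits among those candidates, 79.3% lay between the start sites. At 100 bp per site, 87.1% of peaks had a candidate in both replicates. The divergent share stayed above the single-strand share under each of these alternatives. Of 120 alternative shares of single sequences that the setting could change, 84 stayed within the interval and 36 did not. The 120 include the search within 50 bp of the summit, where less DNA was searched and no share could rise. Depth is unknown, and the cause of none of the other changes was tested.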
